A study of Rattus norvegicus with 6 samples.

Results

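The 10 genes described here encode the kinase mTOR (Mtor), the subunits that define its complexes (Rptor and Rictor), an inhibitory subunit (Deptor), the upstream TSC complex and its GTPase target (Tsc1, Tsc2 and Rheb), a pair of stress-induced inhibitors (Ddit4 and Sesn2) and the ribosomal protein S6 kinase that mTOR activates (Rps6kb1). They were chosen by gene symbol, because sirolimus, the drug tested in the study, inhibits mTOR, and all 10 were found among the 17833 genes of the deposited expression table. The bulk RNA-seq libraries came from wild-type Sprague-Dawley rats operated on at postnatal day 1. A total of 3 rats underwent bilateral pulmonary vein banding (BPVB), in which a suture narrowed the right and left pulmonary veins (PVs) to the width of a padding needle, and 3 sham-operated rats had the chest opened and a suture placed and taken out again, with no banding. At postnatal day 21 right upper lobe PVs were taken, 1 library was made per rat, and no rat that received sirolimus was analysed here. The values are FPKM, the fragments counted on a gene divided by its length and by the counted fragments of its library, so that levels can be compared between genes. Library totals were between 23439506 and 29725808 fragments.

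mTOR is a protein kinase that works in 2 complexes. In mTORC1, which contains raptor (Rptor), it promotes protein synthesis and cell growth when amino acids, energy and growth factors are at hand, and in mTORC2, which contains rictor (Rictor), it activates kinases such as AKT. The TSC complex holds mTORC1 off by turning off the GTPase Rheb, and sirolimus acts by joining the small protein FKBP12 to mTORC1. The pathway is controlled mainly by phosphorylation and by movement to the lysosome, which RNA levels do not measure.

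Of the 10 genes, Ddit4 and Sesn2 were higher and Deptor was lower in the BPVB group (limma, adjusted p under 0.05), and the other 7 did not pass the test. None of the 10 reached the study's threshold for differentially expressed genes (DEGs), an absolute log2 fold change above 1 with an adjusted p under 0.05. The study applied this threshold with DESeq2, while limma was used here, so that the DEGs named here are not those of the study. The 3 genes called are 30% of the 10, beside 31.5% of the 15150 tested genes called in either direction. The background was 17.2% for genes higher and 14.3% for genes lower in the BPVB group, and 3.27% of the tested genes were DEGs by limma. The share of called genes among the 10 is therefore near that of all genes. The groups did not overlap for 3 of the 10 with BPVB above and for 1 with sham above. Among all tested genes these shares were 25.2% and 20.5%, or 45.6% in either direction. The median log2 fold change of the 10 genes was 0.05 and that of all tested genes was 0.03.

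**Figure D1:**
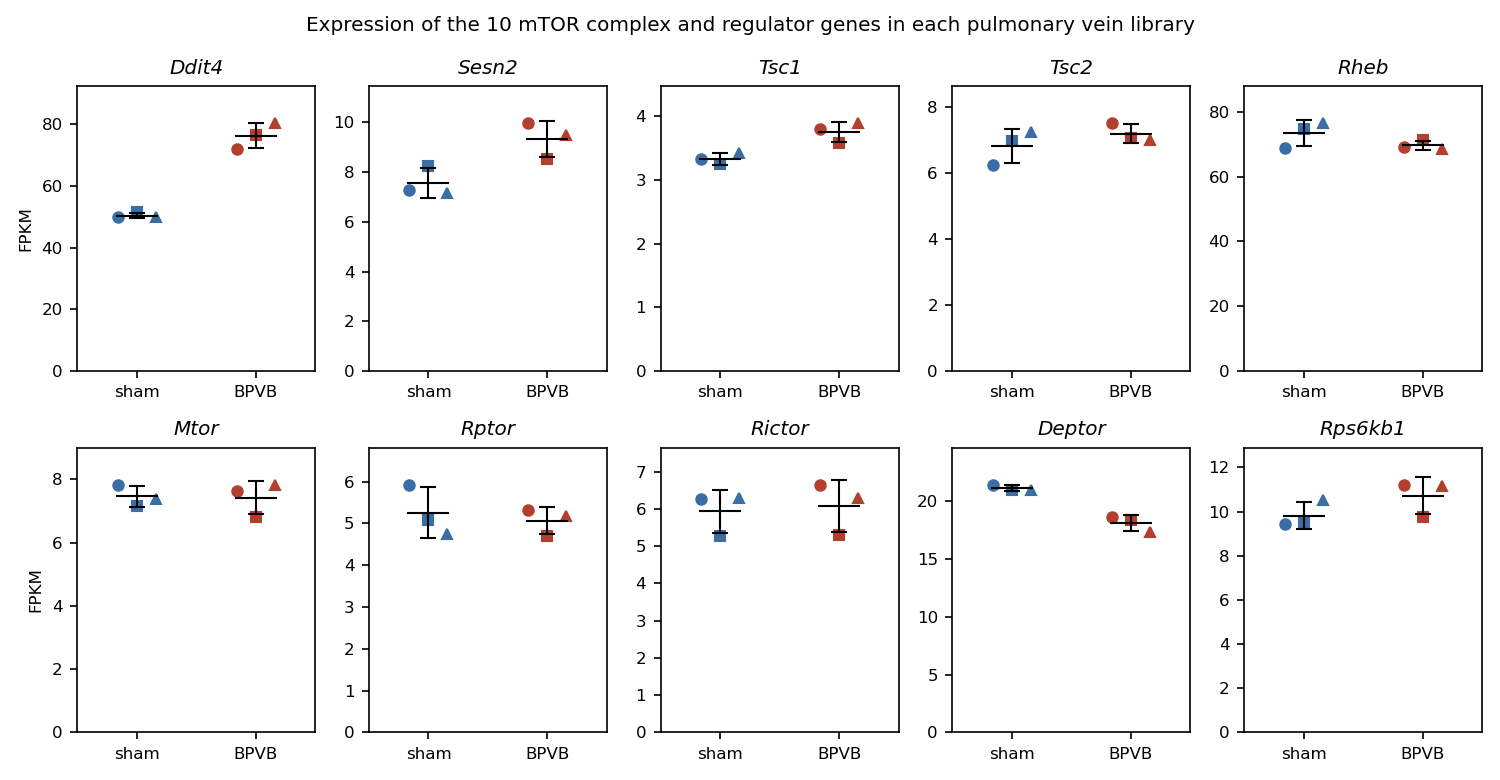
FPKM of each of the 10 genes in the 3 sham (blue) and 3 BPVB (red) libraries, with the marker shape giving the replicate number (circle 1, square 2, triangle 3) and black bars the mean ± SD. The groups are apart for Ddit4, Sesn2, Tsc1 and Deptor, as they are for 45.6% of all tested genes, and the axes start at 0.

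Ddit4 (NCBI Gene 140942) encodes REDD1, a protein that is made within hours of hypoxia, glucocorticoid, DNA damage or amino acid shortage and that inhibits mTORC1 through the TSC complex. Its FPKM was 72.0, 76.6 and 80.4 in the BPVB rats, compared with 49.9, 51.4 and 49.8 in sham rats. Every BPVB value lay above every sham value, and the lowest BPVB value was well above the highest sham value. The means were 76.3 ± 4.2 and 50.4 ± 0.89 FPKM (SD, n = 3 each), a ratio of 1.52. Its log2 fold change on log2(FPKM + 0.5) was 0.59 (standard error 0.044, adjusted p = 1.7e-05, limma with Benjamini-Hochberg adjustment over all tested genes), the largest of the 10. Of all tested genes, 10.5% changed by more than this. Between 2047 and 4123 fragments per library lay behind these values.

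Sesn2 (NCBI Gene 502988) encodes sestrin 2, a leucine sensor that keeps mTORC1 off when leucine is scarce and that is itself induced by stress. Its FPKM was 9.97, 8.55 and 9.51 in the BPVB rats, compared with 7.26, 8.25 and 7.16 in sham rats. The groups did not overlap, but BPVB replicate 2 and sham replicate 2 lay close together. On the log2 scale the difference was 0.29 ± 0.085 (standard error; adjusted p = 0.031, limma). This call was lost when a single library was left out in 4 of 6 cases, where the adjusted p became 0.099 (BPVB replicate 1 omitted), 0.085 (BPVB replicate 3), 0.089 (sham replicate 1) or 0.094 (sham replicate 3). The log2 fold change in those 4 fits stayed between 0.24 and 0.28. Sesn2 rested on 462 to 766 fragments per library, the fewest of the 10 genes. In RefSeq (GRCr8) a long non-coding RNA gene overlaps it, and the strand setting of the counting is not given in the sources used here.

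The sequences before the starts of Ddit4 and Sesn2 are shown because these are the 2 genes of the 10 that rose. They are the 250 bases upstream of the RefSeq gene start in GRCr8, 5′ to 3′ on the gene's own strand (minus for both). Ddit4 is at chr20:28437038-28437287 and Sesn2 at chr5:150005256-150005505. Capitals mark the letters ACGTG, the core of the hypoxia response element.
Ddit4: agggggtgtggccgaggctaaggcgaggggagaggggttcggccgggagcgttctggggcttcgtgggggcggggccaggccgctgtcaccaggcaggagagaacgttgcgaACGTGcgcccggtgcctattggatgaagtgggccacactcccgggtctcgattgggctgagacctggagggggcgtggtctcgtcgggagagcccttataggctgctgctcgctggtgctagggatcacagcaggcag
Sesn2: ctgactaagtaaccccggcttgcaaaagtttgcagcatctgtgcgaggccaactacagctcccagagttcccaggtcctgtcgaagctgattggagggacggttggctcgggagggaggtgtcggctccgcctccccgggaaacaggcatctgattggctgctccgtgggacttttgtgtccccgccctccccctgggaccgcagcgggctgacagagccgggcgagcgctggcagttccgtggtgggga
Promoter windows were found for 8 of the 10 genes, all but Rptor and Deptor. The hypoxia response core ACGTG was found on either strand in those of Ddit4, Rheb and Tsc2 (3 of 8), and in 16.9% of all 27457 windows of the same length. In Ddit4 it lay 138 to 134 bases before the start. The E-box CACGTG, which contains ACGTG, was found in Rheb alone of the 8 and in 5.79% of all windows. The letters TGATGNAA, the core of the C/EBP-ATF response element bound by ATF4, were found in none of the 8 and in 3.27% of all windows. The cAMP response element TGACGTCA (1.7% of all windows) and the full palindromic glucocorticoid response element (0.00728%) were also found in none of the 8. These are matches of letters in a short window.

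Tsc1 and Tsc2 encode hamartin and tuberin, the subunits of the TSC complex, and Rheb the GTPase that this complex turns off. None of the 3 passed the test. Tsc1 (NCBI Gene 60445) had an FPKM of 3.80, 3.58 and 3.89 in the BPVB rats, compared with 3.32, 3.24 and 3.43 in sham rats. The BPVB values all lay above the sham values, as they did for 25.2% of all tested genes, and those in the other direction were 20.5% (45.6% in all). The log2 fold change of Tsc1 was 0.15, with a 95% interval from -0.05 to 0.36 (adjusted p = 0.24, limma). Tsc2 (NCBI Gene 24855) was at 7.51, 7.07 and 7.01 FPKM in the BPVB rats, compared with 6.25, 6.99 and 7.24 in sham rats, so that the groups overlapped. Its log2 fold change was 0.07, with an interval from -0.11 to 0.25. In RefSeq (GRCr8) Tsc2 overlaps Pkd1, so that without a stated strand setting their reads may not be told apart. Rheb (NCBI Gene 26954) was at 69.2, 71.1 and 68.6 FPKM in the BPVB rats, compared with 68.8, 74.7 and 76.5 in sham rats. Sham replicate 1 lay within the range of the BPVB group, and the log2 fold change of -0.07 had an interval from -0.17 to 0.03.

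Mtor, Rptor and Rictor encode the kinase and the subunits that set mTORC1 apart from mTORC2. All 3 overlapped between the groups and none passed the test. Mtor (NCBI Gene 56718) had an FPKM of 7.62, 6.82 and 7.81 in the BPVB rats, compared with 7.83, 7.17 and 7.39 in sham rats. Its log2 fold change was -0.01, with a 95% interval from -0.19 to 0.17 (adjusted p = 0.94, limma). Rptor (NCBI Gene 287871) was at 5.31, 4.70 and 5.17 FPKM in the BPVB rats, compared with 5.92, 5.08 and 4.75 in sham rats, a log2 fold change of -0.05 with an interval from -0.27 to 0.18. Rictor (NCBI Gene 310131) was at 6.65, 5.31 and 6.30 FPKM in the BPVB rats, compared with 6.27, 5.28 and 6.29 in sham rats, a log2 fold change of 0.03 with an interval from -0.21 to 0.27. Replicate 2 was the lowest library of its group for Mtor, Rictor and Tsc1 in both groups. Over the 10 genes, BPVB replicate 2 was the lowest of its group for 6 and sham replicate 2 for 4. None of these 3 intervals reaches the size of the change in Ddit4, and those of Rptor and Rictor come close to the size of that in Sesn2. The direction of the 3 genes flipped between settings or when a library was left out.

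Deptor (NCBI Gene 314979) encodes a subunit that binds mTOR in both complexes and inhibits it. Its FPKM was 18.6, 18.3 and 17.3 in the BPVB rats, compared with 21.4, 20.9 and 21.0 in sham rats. The 3 sham libraries lay close together and above all BPVB libraries. The means were 18.1 ± 0.70 and 21.1 ± 0.27 FPKM (SD, n = 3 each), a ratio of 0.858. On the log2 scale this was a difference of -0.22 ± 0.049 (standard error), which passed with an adjusted p of 0.0097 (limma). It stayed between -0.24 and -0.19 with an adjusted p of at most 0.036 under every alternative tried. A larger change was found in 42.7% of all tested genes. In RefSeq (GRCr8) a pseudogene and 2 small nuclear RNA genes overlap Deptor, and Angptl7 and a pseudogene overlap Mtor.

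Rps6kb1 (NCBI Gene 83840) encodes the kinase that phosphorylates ribosomal protein S6 once mTORC1 has activated it. Its FPKM was 11.2, 9.78 and 11.2 in the BPVB rats, compared with 9.44, 9.51 and 10.5 in sham rats. BPVB replicate 2 lay below sham replicate 3. The log2 fold change was 0.12, with a 95% interval from -0.06 to 0.30 (adjusted p = 0.28, limma). In RefSeq (GRCr8) Rps6kb1 overlaps Rnft1.

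**Figure D2:**
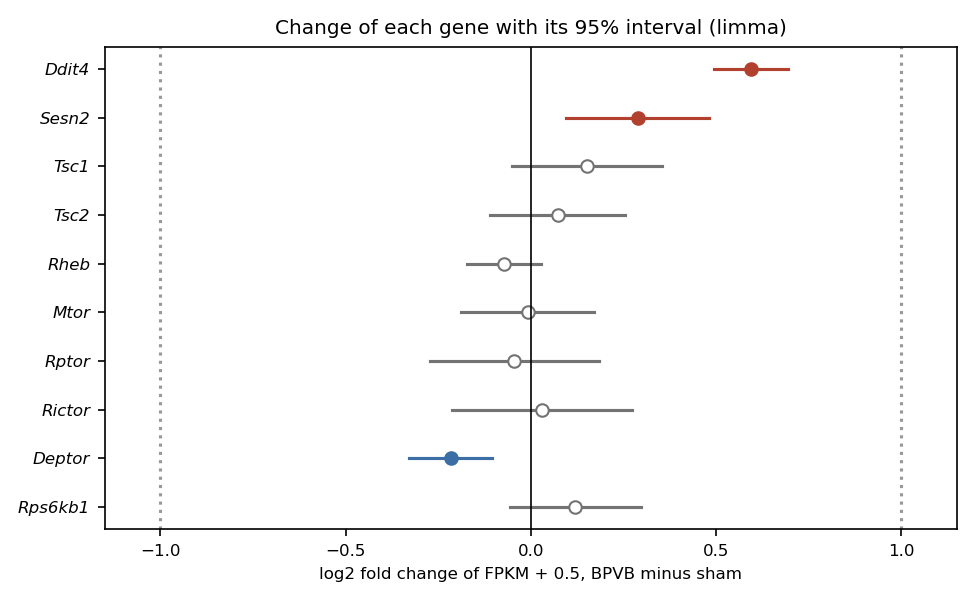
Log2 fold change of FPKM + 0.5 (BPVB minus sham) of each gene, with its 95% interval from limma over 3 libraries per group. Filled points passed an adjusted p of 0.05 (red higher, blue lower), and all 10 intervals lie inside the dotted lines at an absolute log2 fold change of 1.

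By FPKM, which is per length, Rheb, Ddit4 and Deptor stood above the other 7 genes in each group. In the sham group the order was Rheb, Ddit4, Deptor, Rps6kb1, Sesn2, Mtor, Tsc2, Rictor, Rptor and Tsc1. The ranges of Sesn2 and Mtor, of Mtor and Tsc2, of Tsc2 and Rictor and of Rictor and Rptor overlapped, and those of the other neighbours did not. In the BPVB group Ddit4 stood first and Rheb second, and the other genes kept their places. There the ranges of Rps6kb1 and Sesn2, of Mtor and Tsc2 and of Rictor and Rptor overlapped. The exchange between Ddit4 and Rheb was seen inside every library. Ddit4 was above Rheb in 3 of 3 BPVB libraries and below it in 3 of 3 sham libraries. In BPVB replicate 1 they lay close together (72.0 and 69.2 FPKM), and of the pair Ddit4 alone passed the test between the groups. The coefficients of variation within a group ran from 1.3% (Deptor, sham) to 12% (Rptor, sham).

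Ratios of FPKM within a library do not depend on the scaling between libraries. The ratio of Rptor to Rictor, the defining subunits of the complexes, was 0.798, 0.886 and 0.821 in the BPVB rats, compared with 0.945, 0.963 and 0.756 in sham rats. These groups overlapped (exact permutation test, two-sided, p = 0.5). The ratio of Tsc2 to Tsc1 also overlapped, with means of 1.92 ± 0.10 in the BPVB group and 2.05 ± 0.15 in the sham group (SD, n = 3 each; exact permutation test, two-sided, p = 0.3). The ratio of Deptor to Mtor was 2.44, 2.69 and 2.22 in the BPVB rats, compared with 2.73, 2.92 and 2.84 in sham rats. It did not overlap between the groups, and its p was 0.1 (exact permutation test, two-sided), the smallest that 3 rats against 3 allow.

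**Figure D3:**
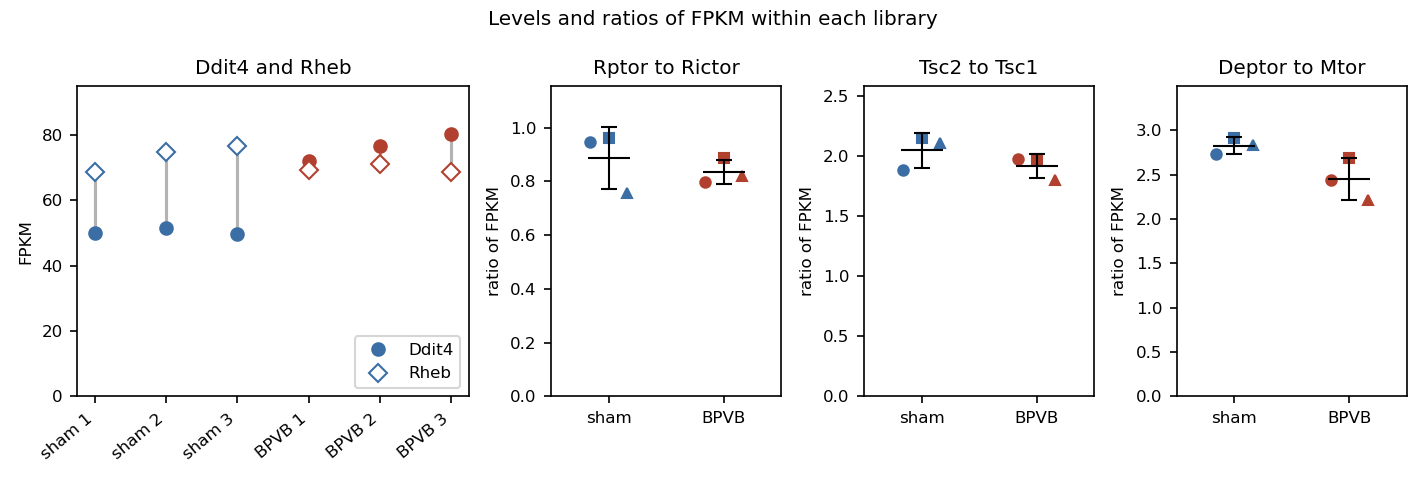
Left, FPKM of Ddit4 (circles) and Rheb (diamonds) in each sham (blue) and BPVB (red) library, joined by a grey line, with Ddit4 above Rheb in the 3 BPVB libraries alone. Right, the ratio of FPKM of a pair of genes in each library (marker shapes give the replicate numbers 1 to 3), with the mean ± SD in black; the groups are apart for Deptor to Mtor.

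The other genes of the pathway were taken from 8 lists with 103 genes, of which 102 were in the table and 101 were tested. In the BPVB group 19 were higher and 12 were lower (30.7% called), none was a DEG, and the median log2 fold change was 0.09. The called share is again close to the 31.5% of all tested genes. Of the other subunits and assembly factors of the complexes, 1 of 8 passed. This was Prr5, which encodes a subunit of mTORC2 and fell from 1.07 ± 0.10 to 0.625 ± 0.045 FPKM (SD, n = 3 each). Mlst8, which encodes a subunit of both complexes, had a log2 fold change of 0.22 and did not pass (adjusted p = 0.13, limma). Tbc1d7, which encodes the remaining subunit of the TSC complex, rose (log2 fold change 0.42, adjusted p = 0.0060). Ddit4l, the paralog of Ddit4, went in the opposite direction to it, from 14.3 ± 0.45 FPKM in the sham group to 8.42 ± 2.1 in the BPVB group (SD, n = 3 each; log2 fold change -0.76, adjusted p = 0.0054, limma).

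Amino acids reach mTORC1 through the Rag GTPases and the Ragulator, GATOR and sensor proteins at the lysosome. Of 29 tested genes of this kind, 1 was higher and 3 were lower (13.8% called, beside 31.5% of all tested genes). The gene that rose was Sesn3, another sestrin, from 6.13 ± 0.21 to 9.55 ± 1.2 FPKM (SD, n = 3 each; log2 fold change 0.60, adjusted p = 0.0012, limma). Sesn1, the remaining sestrin, had a log2 fold change of 0.17 and did not pass. The genes that fell were the arginine sensor gene Castor1 (log2 fold change -0.29), Sec13 (-0.28) and the Ragulator gene Lamtor2 (-0.26). SLC transporters bring amino acids into the cell. Of 6 tested, 4 rose and 1 fell (83.3% called). Slc7a5 and Slc3a2, which encode the subunits of a leucine transporter, rose from 4.83 ± 0.34 to 8.39 ± 0.89 and from 44.6 ± 1.9 to 64.1 ± 1.4 FPKM (SD, n = 3 each). Slc38a1 had a log2 fold change of 0.57, and Slc38a2 one of -0.13.

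Growth factors act on mTOR through PI3K and AKT. Of 19 genes of this arm, 2 rose and 2 fell (21.1% called, beside 31.5% of all tested genes). Irs2, an adaptor of the insulin receptor, rose (log2 fold change 0.50, adjusted p = 0.0041, limma), as did Pdpk1, which encodes the kinase that phosphorylates AKT and the S6 kinases (0.27). Pik3ip1, which encodes an inhibitor of PI3K, fell from 29.2 ± 0.81 to 18.4 ± 0.78 FPKM (SD, n = 3 each; log2 fold change -0.65), and Pik3r1, a regulatory subunit of PI3K, fell as well (-0.43). In the AMPK arm, which senses energy, 2 of 10 genes rose (Prkag2, 0.26 and Cab39, 0.22) and 2 fell (Prkag1, -0.40 and Prkaa2, -0.31), or 40% called.

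Among 20 genes for substrates and effectors of the complexes, 9 rose and none fell (45% called, beside 31.5% of all tested genes). The largest rises were those of Sgk1, which encodes a kinase activated by mTORC2 (log2 fold change 0.64, adjusted p = 9.4e-05, limma), Mitf (0.50) and Eif4b, which encodes a translation factor phosphorylated by S6 kinases (0.47). Eif4b went from 77.3 ± 1.8 to 107 ± 2.1 FPKM (SD, n = 3 each). Of the immunophilin genes, Fkbp1a, which encodes FKBP12, was at 241 ± 2.5 FPKM in the BPVB group and at 248 ± 7.4 in the sham group (SD, n = 3 each), and did not pass (adjusted p = 0.30, limma). Its 95% interval on the log2 scale ran from -0.11 to 0.02. Fkbp4 (log2 fold change -0.55) and Fkbp3 (-0.38) fell.

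**Figure D4:**
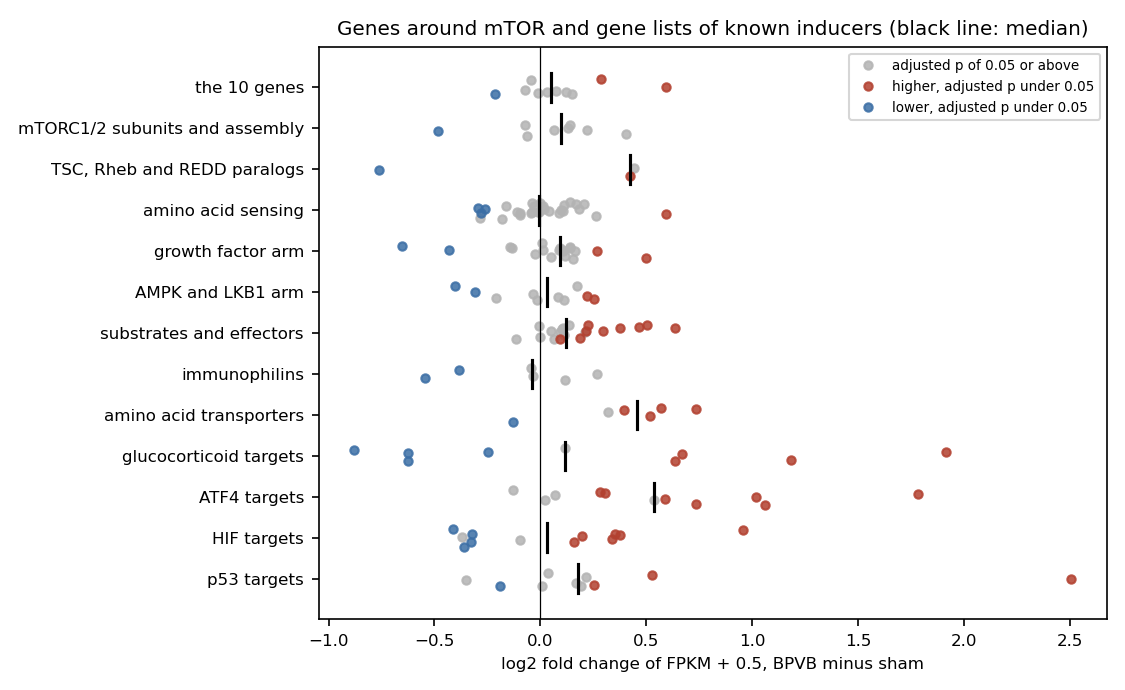
Log2 fold change of FPKM + 0.5 (BPVB minus sham) of every tested gene in each list, 1 point per gene, with red and blue for an adjusted p under 0.05 (limma) and a black line at the median of the list. The 10 genes and the 8 pathway lists lie between -0.76 and 0.73, and the list of ATF4 targets, which holds Atf4 itself, has a median of 0.54.

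The deposited annotation gives a wider view of the same pathway. Its mTOR signaling pathway term held 151 genes, all 10 among them, and 142 were tested. In the BPVB group 34 were higher and 15 lower (34.5% called, beside 31.5% of all tested genes), and the median log2 fold change was 0.07. The 2 DEGs of the term were Wnt7a and Atp6v1c2, both at a mean under 1 FPKM in each group, and are named here after their values were seen. The GO terms for negative regulation of TOR or TORC1 signaling held 43 tested genes, of which 8 were higher and 5 lower (30.2% called). The 1 DEG among them was Arntl, a clock gene. The GO terms for positive regulation held 42 tested genes, of which 2 were higher and 4 lower (14.3% called). None of the 5 genes of the TORC1 complex term was called by limma at an adjusted p under 0.05, and none had an unadjusted p under 0.05. Of the 10 genes of the TORC2 complex term, Sesn2 and Sesn3 were higher and Prr5 was lower (30% called). The terms share Mtor, Mlst8, Telo2 and Tti1.

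Ddit4 and Sesn2 are known to be induced by several transcription factors, and lists of other targets of these factors were read for comparison. ATF4 answers amino acid shortage and stress of the endoplasmic reticulum, and its list held 11 genes, Atf4 itself among them. Of these, 7 rose, none fell (63.6% called, beside 31.5% of all tested genes) and the median log2 fold change was 0.54. Trib3 (1.06), Asns (1.02) and Nupr1 (1.79) rose the most, and Atf4, which is counted among the 7, had a log2 fold change of 0.31 (adjusted p = 9.1e-05, limma). Glucocorticoid receptor targets went both ways, with 4 of 9 higher (Pdk4, 1.92) and 4 lower (Zbtb16, -0.88), or 88.9% called. The glucocorticoid list shares Per1 with the clock genes, and Sgk1, Fkbp5 and Ndrg1 also stand in more than 1 list. Targets of the hypoxia-inducible factors also went both ways, with 6 of 12 higher (Ca9, 0.96 and Ndrg1, 0.38) and 4 lower (Adm, -0.41 and Pgk1, -0.36), or 83.3% called. Ca9 was low in both groups, at a mean of 0.736 FPKM in the BPVB group and 0.129 in the sham group. Of 10 targets of p53, 3 were higher and 1 lower (40% called). The largest change in that list was in Cdkn1a, which rose from 4.99 ± 0.11 to 30.7 ± 1.6 FPKM (SD, n = 3 each). Tp53inp1 had a log2 fold change of 0.53, while Mdm2 had a log2 fold change of 0.01. No binding of any of these factors was measured. The lists were chosen with earlier results of these data known, and a part of any of these factors in the rise of Ddit4 or Sesn2 was not tested.

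The 5 genes whose profile over the 6 libraries was nearest to that of Ddit4 were Atf5, Dapk2, Tapbp, Myom2 and Pla2g4a, out of 12156 genes whose mean FPKM was 1 or more. Likeness was the Euclidean distance on log2(FPKM + 0.5) after each gene's own mean was removed, and it was between 0.0785 and 0.1 for the 5 genes, beside a median of 0.771. With 2 groups of 3 libraries, such a measure mainly finds genes with a similar difference between the groups. Atf5 was at 104, 104 and 112 FPKM in the BPVB rats, compared with 68.9, 74.0 and 69.0 in sham rats. It encodes a stress-response transcription factor and also stands in the list of ATF4 targets.

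The groups also differed in markers of cell types, and in bulk tissue fewer cells of a type and less RNA per cell cannot be told apart. Markers of vein and of the heart muscle sleeve around it were abundant in both groups, such as Myl7, Acta2 and Vwf. The summed FPKM of 8 cardiomyocyte markers was 15488 to 15900 in the BPVB group and 21295 to 21705 in the sham group, with 6 of the 8 lower and 2 higher, beside 14.3% lower and 17.2% higher among all tested genes. The 8 alveolar type 2 cell markers were all higher, with sums of 553 to 598 against 61.5 to 63.0, and so were the 8 macrophage markers (691 to 712 against 234 to 245) and 10 proliferation genes (51.3 to 53.5 against 19.5 to 21.95). Fibroblast markers (5 of 8 higher and 2 lower) summed to 6871 to 6904 against 6012 to 6052, smooth muscle markers (2 of 8 higher and 4 lower) to 5233 to 5284 against 5465 to 5504, and endothelial markers (5 of 8 lower) to 1024 to 1043 against 1155 to 1168. Of the other lists, 5 of 6 alveolar type 1 markers were higher and 1 lower, 3 of 6 adipocyte markers were higher and 1 lower, and 1 of 8 lymphocyte markers was higher (12.5% called, under the 31.5% of all tested genes). Neuronal markers (5 of 6 lower) and Schwann cell markers (4 of 6 lower, 1 higher) had lower sums in the BPVB group. Mesothelial markers (3 of 5 lower, 1 higher), neutrophil markers (2 of 5 lower, 40% called), erythroid markers (2 of 6 lower, 33.3% called) and club and ciliated cell markers (1 of 3 higher, 1 lower) made up the rest. Of 17 clock genes 5 were higher and 11 lower, among them Arntl (log2 fold change 2.91) and Dbp (-3.49), and the time of day of tissue collection is not given in the sources used here. The part of cell type content and of clock phase in the changes of Ddit4, Sesn2 and Deptor was not tested.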

How the data were processed

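RNA was measured in 3 BPVB and 3 sham PV libraries, grouped by the sample labels. The series description calls the operation PAB, while the sample labels and the paper name pulmonary vein banding, which is used here. By the paper, fastp, HISAT and HTSeq-count were used for trimming, mapping and counting, and the authors deposited FPKM. The submitters' processing notes name HISAT2 2.0.5, StringTie 1.3.3b, featureCounts 1.5.0-p3 and DESeq2 1.20.0 instead, and labels and paper name different library kits. Genome build and strand setting are not given in the sources used here. 0 per-sample columns were left unused.

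FPKM = fragments / (length × total) was solved for whole fragments, lengths and totals, which came out whole (within 0.001) for 100% of genes and gave the depth. Duplicate fragments cannot be seen. limma 3.58.1 (R 4.3.3; lmFit, eBayes with trend, two-sided, Benjamini-Hochberg) was run on log2(FPKM + 0.5), which understates changes of low genes, leaving out genes whose mean FPKM was under 0.1, and was tested on simulated data. Single ratios were compared by exact permutation tests (scipy 1.17.1). That the libraries are separate rats comes from the paper's methods.

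The members and lists were chosen with earlier results of these data known. Named genes are the 10 members, up to 3 called genes of each list in each direction with the largest change, and the 5 nearest profiles to the member that changed most. Fkbp1a, Mlst8, Sesn1, Mdm2, Atf4, Vwf and the genes of the annotation terms were named outside this rule, and the annotation terms were added after values were seen. RefSeq tables (GRCr8) gave promoters, overlapping genes and, by NCBI gene ID, listed genes that the table spells otherwise. The alternatives were pseudocounts of 1 and 0.1, filters (none, or a mean of 1 FPKM), scalings (median of ratios, TPM, quantile), a replicate block, robust eBayes, limma-voom on recovered fragments over genes with at least 10, and leaving out each library.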

Additional observations from a re-analysis of the deposited data

How the results depend on the processing

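Ddit4 kept its direction and its call in all 16 alternatives (log2 fold change 0.56 to 0.64, adjusted p at most 0.00019), and Deptor did as well (-0.24 to -0.19). Sesn2 kept its direction in all 16 and lost its call in 5. The replicate numbers share no stated batch, and same-numbered libraries of the 2 groups correlated at 0.0255, 0.0136 and 0.0153 in their deviations from the group means, so they were not taken as pairs, although each library correlated best with its own number. With the replicate block Sesn2 had an adjusted p of 0.061 and the number of the 10 genes that were higher was 1 in place of 2. With single libraries left out that number ranged from 1 to 2, and the counts of the 10 genes that were lower or DEGs, of pathway genes in each direction and of all called genes did not move by more than 1.5 times in any alternative. Counts for single lists, annotation terms and markers were not recomputed. Signs near 0 were not fixed. Mtor was at 0.021 in TPM and between -0.045 and 0.046 with single libraries left out, positive without BPVB replicate 2 and without sham replicate 1 (0.024). Rptor ranged from -0.108 to 0.037, positive without BPVB replicate 2 (0.002) and without sham replicate 1. Rictor was at -0.007 after quantile normalization and ranged from -0.047 to 0.118, negative without BPVB replicate 1 (-0.032) and without sham replicate 2. With single libraries left out Tsc2 ranged from 0.015 (without sham replicate 1) to 0.114 (without sham replicate 3), Rheb from -0.118 (without sham replicate 1) to -0.042 (without sham replicate 3), Rps6kb1 from 0.087 (without BPVB replicate 1) to 0.182 (without BPVB replicate 2) and Tsc1 from 0.128 to 0.181, and none of these 4 genes passed the test. Without a filter 25.6% of genes were called and with a mean FPKM of at least 1 it was 36.6%. Scalings placed the median of all genes between -0.01 and 0.06. With 3 rats a group, changes under about 0.2 on the log2 scale could not be told from 0 for most of the 10 genes.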
